A study of Mus with 2 samples.

Results

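The genes described here are the kinesins and the centromere proteins of the newborn mouse kidney. They were every annotated gene whose symbol starts with Kif and a digit, or consists of Cenp and letters only, which gave 57 of 28693 features. Of these, 36 were sorted by known role as kinesins (11 of mitosis, 15 of transport, 10 of the cilium or of signalling), 12 as inner kinetochore proteins and 6 as other centromere proteins. The 3 in no role list were Kif1bp, which encodes a kinesin-binding protein and not a motor, Kif16bos, an opposite-strand transcript, and Kif2b, which had 0 UMIs in both libraries.

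Kinesins are motors that use ATP to walk along microtubules or to take them apart at their ends. Some carry vesicles, organelles and ciliary cargo in every kind of cell, and others build and elongate the mitotic spindle or cut the daughter cells apart and are made for division. Centromere proteins mark the site on each chromosome where the kinetochore forms: the histone variant Cenpa sets that site, a constitutive network of inner kinetochore proteins sits on it, and Cenpe and Cenpf join the outer kinetochore when the spindle attaches. In the developing kidney, progenitor, stromal and endothelial cells divide while podocytes leave the cell cycle as they mature.

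The data were 2 single-cell RNA libraries of kidney at P0 (postnatal day 0), both from mice of the genotype Rbpj c/- ; Foxd1cre/+, in which Rbpj is deleted by a Cre recombinase under the Foxd1 promoter, a driver of the renal interstitium. The series design lists 4 libraries, and the control libraries (Rbpj c/+ ; Foxd1cre/+), which carry the same Cre, were not analysed here. No value therefore compares the genotypes of mice. Because the driver acts in the interstitium, comparisons of stroma with other types cannot tell cell type apart from the deletion. Cells were captured by 10x Chromium and the 3′ ends of the cDNA were counted as unique molecular identifiers (UMIs). Levels are given as CPM, the UMIs of a gene scaled to 1e6 UMIs of the cells summed. They count molecules by their 3′ ends and are not scaled by transcript length. The labels do not say that the libraries came from separate animals, so no p-value below measures a spread between animals. The tests take out the overall difference between the libraries. Each p-value measures only the disagreement between them that is left.

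Barcodes with at least 2000 UMIs and at most 10% mitochondrial UMIs were kept, which left 6220 cells in replicate 1 and 5149 in replicate 2, with median depths of 11987.5 and 12307 UMIs. Deep cells, above 50000 UMIs, made up 506 and 332 of these but contributed 39.9% and 32.5% of their UMIs, and the libraries had 8 barcodes in common. A cell was gated to a type when at least 3 of 6 markers of that type, none of them a kinesin or centromere gene, had a UMI and led every other type by at least 2 markers. This gated 8067 cells and left 3302 ungated. The mural gate, with 22 cells, was too small to be summed, which left 10 types. Each gate's 10 leading genes held its own markers (Six2 and Cited1 in nephron progenitors, Podxl and Ptpro in podocytes, Cdh5 and Kdr in endothelial cells), and the immune gate was led by S100a8 and S100a9 together with C1qa and C1qb. Rbpj, the targeted gene, stood at 46.6 CPM in replicate 1 and 47.3 CPM in replicate 2 over all kept cells, and at 26.5 and 26.3 CPM in the stroma-gated cells. Where in the transcript the deletion lies is not visible to a 3′ count, so these values do not check it.

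Cells were then split by whether they had a UMI of Mki67, a gene transcribed in cycling cells. The share of cells with such a UMI was 60.5% ± 2.0 (SD, n = 2) in the early nephron gate, 45% ± 7.07 in ureteric epithelium, 33.2% ± 4.77 in endothelial cells, 31.0% ± 4.57 in nephron progenitors, 30.8% ± 2.21 in stroma and 28.6% ± 1.38 in immune cells. It was 21.2% ± 1.28 in loop and distal tubule, 19.5% ± 2.33 in proximal tubule, 15.3% ± 2.96 in erythroid cells and 5.33% ± 1.34 in podocytes. The shares from endothelial cells to immune cells lay within their spread of each other, and the early nephron and the podocyte gates stood at the ends of the order. Thinned to 5000 UMIs a cell, the early nephron share was 45.9% ± 0.716, the stromal share 27.3% ± 3.08, the progenitor share 22.7% ± 4.06 and the podocyte share 3.61% ± 1.12. The share of ureteric epithelium was 27.3% ± 9.64, below the 29.7% of endothelial and the 29.3% of immune cells, so its second place in the order was lost. The thinned shares of proximal tubule (11.0%), loop and distal tubule (11.1%) and erythroid cells (6.84%) were more than 1.5 times below the unthinned ones. Podocytes, the type known to have left the cycle, had median depths of 7380.5 and 8245.5 UMIs. Barcodes with 10 to 99 UMIs, which hold free RNA, had Mki67 at 132 CPM, against 219 CPM in the kept cells.

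**Figure D1:**
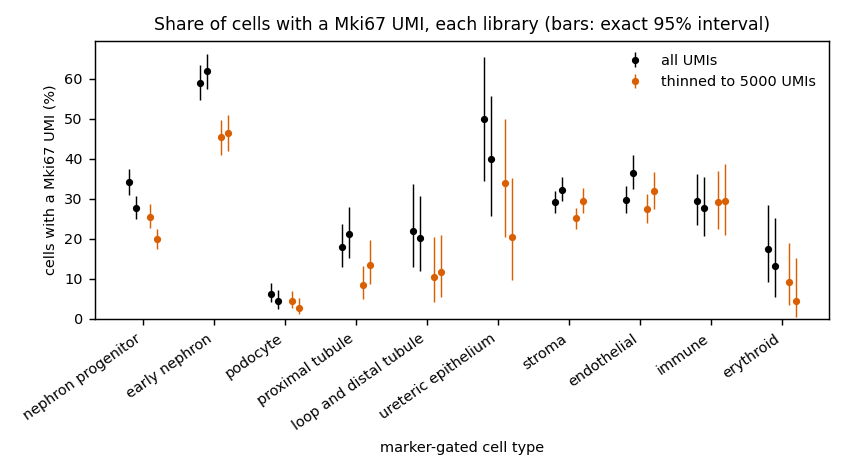
Share of cells with a Mki67 UMI (percent, y axis) in each marker-gated type (x axis), with 1 point per library; black points use all UMIs, orange points use cells thinned to 5000 UMIs, and bars are exact 95% binomial intervals, which cover counting error only. The early nephron gate is highest and the podocyte gate lowest at both depths, and the mean share is lower after thinning in every type but the immune gate.

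The split does not separate dividing from resting cells fully, because shallow dividing cells can lack a Mki67 UMI and resting cells can carry one from free RNA. Cells with a Mki67 UMI were deeper than those without: in nephron progenitors the median was 22840 against 13852.5 UMIs in replicate 1 and 21654.5 against 13503 in replicate 2, and in stroma it was 12083.5 against 9115 and 11529 against 8815. For each library, type and state with at least 20 cells in both libraries, UMIs were summed, and these sums were tested with edgeR's quasi-likelihood test with the library as a block, over 14819 genes with Benjamini-Hochberg adjustment. Both states could be summed in 6 types (nephron progenitor, early nephron, proximal tubule, stroma, endothelial, immune), which gave 12 sums with and 12 sums without Mki67. Of the 57 members, 53 passed the filter on low counts; those that did not were Kif17 (111 UMIs in all kept cells), Kif5a (75), Kif16bos (22) and Kif2b (0).

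Over all kept cells the most abundant members were Kif5b, the widely made heavy chain of conventional kinesin, with 54023 UMIs (246 CPM in replicate 1 and 238 in replicate 2), and Cenpf, a large coiled-coil protein of the outer kinetochore, with 52203 UMIs (241 and 225 CPM). These genes of nearly equal level differed in which cells held them. In the 6 types, cells with a Mki67 UMI held 97.8% ± 0.211 of the Cenpf UMIs and 51.7% ± 0.34 of the Kif5b UMIs (SD, n = 2), and they held 51.0% ± 1.19 of all UMIs. For Kif11, Kif14, Kif18b, Kif4 and Kif2c that share was between 97.3% and 97.7%. It was 50.6% ± 0.804 for Cenpb, 48.5% ± 0.528 for Kif1b and 40.9% ± 2.21 for Kif21a.

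Averaged over the 6 types, 29 of the 53 tested members were higher in cells with Mki67 and 2 were lower, at an adjusted p under 0.05. Of all genes tested, 9.11% were higher and 11.7% lower. The median log2 difference was 0.92 over the members tested and -0.07 over all genes. By role list, all 11 mitotic kinesins, all 12 inner kinetochore proteins and 5 of 6 other centromere proteins rose. Of the cilium or signalling kinesins 1 of 10 rose, and none of 13 transport kinesins rose while 2 fell. The few calls among cilium, signalling and transport kinesins are near the shares of all genes. The lists were chosen with earlier results of these data known, so the counts by list describe the members and are no independent support. For 19 members every one of the 12 sums with Mki67 was above every one of the 12 sums without, which held for 0.951% of all genes tested. They were the 11 mitotic kinesins, Cenpf, Cenpe, Cenpa and the inner kinetochore genes Cenpn, Cenpi, Cenpl, Cenpm and Cenpq.

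**Figure D2:**
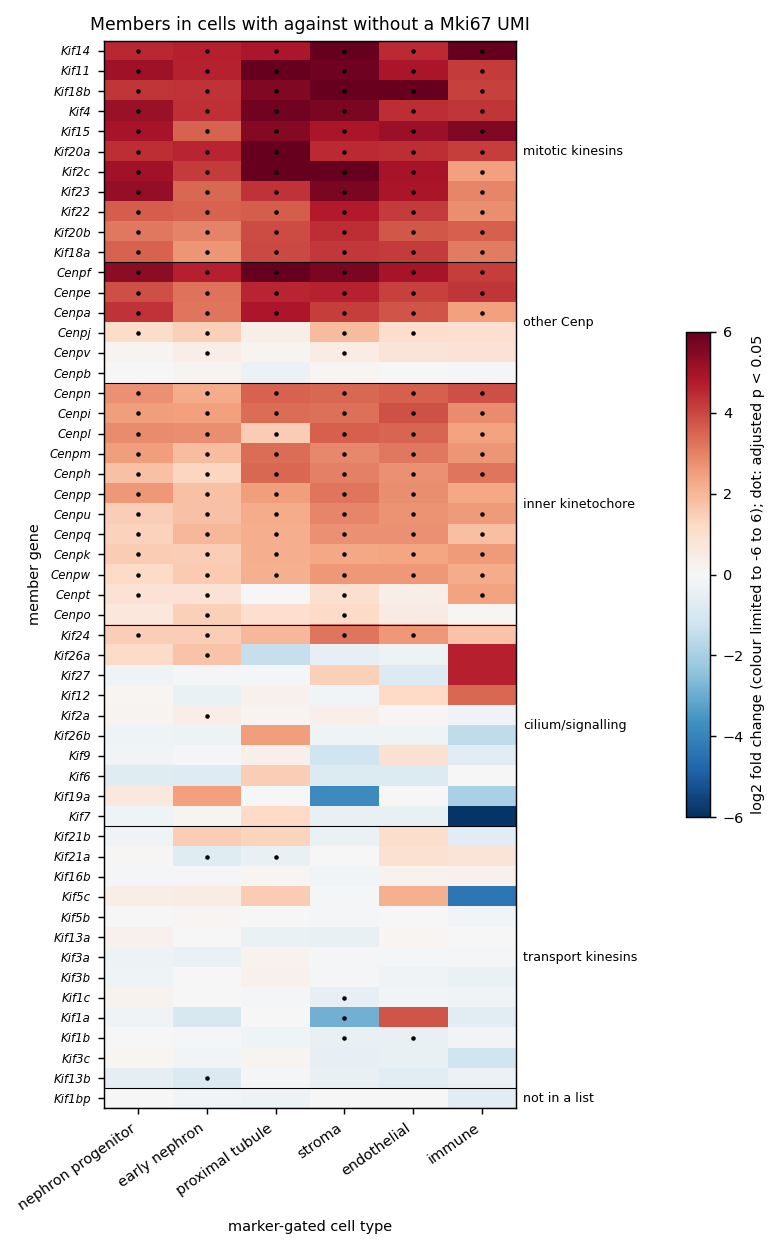
Log2 fold change of each tested member (y axis, grouped by role) between cells with and without a Mki67 UMI in each of 6 types (x axis), as colour limited to -6 to 6; a dot marks an adjusted p under 0.05 in edgeR's quasi-likelihood test. All 11 mitotic kinesins carry a dot in all 6 types, and the transport kinesins carry none on the higher side; strongly coloured cells without a dot, such as Kif26a, Kif27 and Kif7 in the immune gate, had SE of 2.63 or more.

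The mitotic kinesins had a median log2 difference of 4.79, with a range from 3.62 to 5.97. Kif11, which pushes the spindle poles apart (RefSeq GRCm38.p6, chr19:37376382-37421863), stood at 114 CPM in replicate 1 and 133 in replicate 2 with Mki67, and at 3.90 and 3.13 CPM without, as means over the 6 types. The lowest sum with Mki67 was 46.3 CPM and the highest without was 7.34 CPM, so the states did not overlap. The log2 difference was 5.31 ± 0.13 (SE worked back from the F statistic, adjusted p = 2.167e-24, edgeR quasi-likelihood test). Kif15, which can stand in for Kif11, differed by 4.93 ± 0.15 on the same scale (67.1 and 81.0 CPM with, 2.69 and 2.72 without).

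The motors of the late spindle and of cytokinesis also rose in all 6 types. Kif23, a subunit of the centralspindlin complex of the midzone (chr9:61917277-61946810), had 105 and 110 CPM with Mki67 and 5.38 and 6.37 CPM without, a log2 difference of 4.42 ± 0.10. Kif20a, which brings the chromosomal passenger complex to the midzone, had 46.5 and 47.7 CPM with and 2.23 and 1.56 CPM without (4.79 ± 0.16). Kif20a overlaps Brd8 and Cdc23 in the annotation, and its UMIs could include theirs if strand was not used. Kif14, needed for abscission (chr1:136466301-136555938), had 23.0 and 20.5 CPM with and 0.495 and 0.417 CPM without, and its fitted difference was the largest at 5.97 ± 0.27. The immune sums without Mki67 held no Kif14 UMI in either library, so that fitted value leans on the prior count and is no bound. Kif20b, also of cytokinesis, differed by 3.63 ± 0.09 (100 and 113 against 7.82 and 8.77 CPM).

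The remaining mitotic kinesins act on chromosomes and microtubule ends. Kif4, a chromosome-bound motor, differed by 4.96 ± 0.14 (72.3 and 79.6 CPM with, 2.67 and 2.31 without), and Kif22, another, by 3.75 ± 0.12 (56.9 and 61.5 against 4.04 and 4.07). Kif2c, which depolymerises microtubules to correct faulty attachments (chr4:117159633-117182624), differed by 4.79 ± 0.16 (48.4 and 50.5 against 2.50 and 2.20). The length-controlling motors Kif18a and Kif18b differed by 3.62 ± 0.14 and 5.30 ± 0.30, with Kif18b the rarest of the list at 11.6 and 15.7 CPM in cells with Mki67. In each of these genes both libraries and all 6 types gave a higher level with Mki67.

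The centromere proteins split into those that came with division and 1 that did not. Cenpf (chr1:189640606-189688107) had 432 and 419 CPM with Mki67 and 12.2 and 11.2 without, a log2 difference of 5.30 ± 0.10 (adjusted p = 5.579e-27, edgeR quasi-likelihood test). Cenpe, a kinesin motor of the kinetochore (chr3:135212563-135273540), had 230 and 236 against 13.4 and 13.7 CPM (4.11 ± 0.06). Cenpa (chr5:30666877-30674837) had 256 and 241 against 20.4 and 18.6 CPM (3.80 ± 0.09). Cenpb, which binds the repeated DNA of the centromere, had 101 and 102 CPM with and 96.8 and 101 without, a log2 difference of -0.03 ± 0.05 (adjusted p = 0.74). Cenpj, a centriole growth factor that shares the name but not the site, differed by 1.15 ± 0.13, and Cenpv by 0.47 ± 0.10.

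Among single cells thinned to 5000 UMIs, a Cenpf UMI was found in 73.7% and 71.7% of nephron progenitors with Mki67 and in 7.77% and 7.42% of those without, in replicates 1 and 2. In stroma the shares were 64.3% and 59.2% against 5.17% and 5.79%. In podocytes without Mki67 they were 2.56% and 0.323%. Free RNA also held Cenpf, at 114 and 131 CPM in the barcodes with 10 to 99 UMIs, so shares of a few percent are not read as expression. Kif5b had a UMI in 65.0% and 59.4% of progenitors with Mki67 and in 59.4% and 57.7% of those without, so its share differed little between the states.

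The inner kinetochore genes rose by less than the mitotic kinesins, with a median of 2.41 and a range from 0.80 to 3.23 on the log2 scale. Cenpn, which reads the Cenpa nucleosome, led with 22.2 and 22.5 CPM with Mki67 and 3.05 and 1.97 without (3.23 ± 0.17). Cenpm and Cenpw were the most abundant of them in cells with Mki67. Cenpm stood at 76.9 and 82.0 CPM against 12.2 and 12.7 (2.72 ± 0.10). Cenpw stood at 73.4 and 84.6 CPM with and at 19.2 and 22.8 CPM without, and differed by 2.06 ± 0.09. The subunits Cenpt and Cenpo moved least, by 0.92 ± 0.15 and 0.80 ± 0.17. For 7 of the 12 (Cenph, Cenpp, Cenpu, Cenpk, Cenpw, Cenpt, Cenpo) the sums with and without Mki67 overlapped across types. Cenpp spans Ippk, Ecm2, Aspn, Omd and Ogn, and Cenpk, Cenpn, Cenpo, Cenpq, Cenpt and Cenpu each overlap a gene of the annotation. Whether counting used strand was not given in the sources used here.

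Most transport kinesins (11 of 13) did not pass the test in either direction. Kif5b had 240 and 231 CPM with Mki67 and 234 and 220 without (log2 difference -0.01 ± 0.04, adjusted p = 0.93), and its 24 sums lay between 179 and 286 CPM. The 2 transport members that fell did so by little. Kif13b, a motor of phosphoinositide-bearing vesicles, had 14.97 and 18.4 CPM with and 21.1 and 21.5 without, and fell by 0.49 ± 0.11 (adjusted p = 0.00091, edgeR quasi-likelihood test). Kif1b, which carries mitochondria and vesicle precursors, had 68.5 and 67.1 CPM with and 77.7 and 77.3 without, and fell by 0.24 ± 0.05 (adjusted p = 0.00085). The Kif13b call was lost when cells were thinned to 5000 UMIs (-0.40, adjusted p = 0.26) and when cells with Top2a, Pcna or Mcm6 were left out of the group without Mki67 (-0.36, adjusted p = 0.075).

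Of the cilium or signalling kinesins only Kif24, which holds back ciliary growth at the mother centriole, passed the test. It had 5.62 and 6.02 CPM with Mki67 and 1.06 and 1.85 without, and rose by 2.08 ± 0.28 from 431 UMIs. Kif2a, a microtubule depolymerase of neurons and cilia, had 76.5 and 84.8 CPM with and 70.9 and 65.6 without (0.14 ± 0.07, adjusted p = 0.19), unlike its relative Kif2c. Kif7, the Hedgehog-pathway kinesin of the ciliary tip, had 3.74 and 4.60 against 4.33 and 5.34 CPM without (adjusted p = 0.29).

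**Figure D3:**
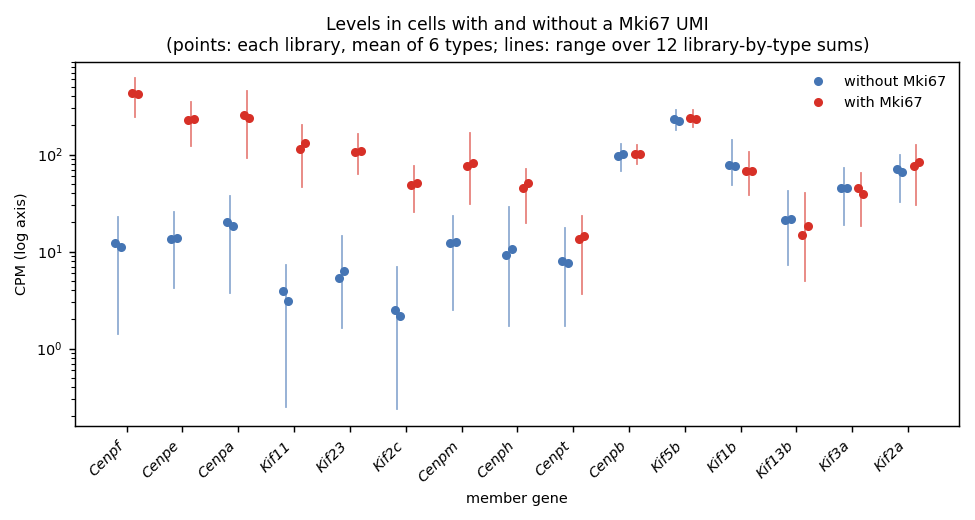
Level (CPM, log axis) of 15 members (x axis) in cells with (red) and without (blue) a Mki67 UMI; points are the means over 6 types in each library and lines run from the lowest to the highest of the 12 library-by-type sums. Cenpf, Cenpe, Cenpa, Kif11, Kif23, Kif2c and Cenpm show separate lines, while the lines of Cenpb, Kif5b, Kif1b, Kif13b, Kif3a and Kif2a overlap.

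Other genes of the same machinery were counted from lists. All 31 of the kinetochore and spindle genes outside the symbol rule that were in the files (of 32 listed, such as Ndc80, Bub1, Aurkb and Tpx2) were higher in cells with Mki67, with a median log2 difference of 3.31. Of 12 cargo adaptors, light chains and other kinesin partners, 0 were higher and 2 lower, with a median of -0.10. Of all genes tested 9.11% were higher and 11.7% lower, so the counts of the kinesin partners are no result about them. Cenps and Cenpx, of the inner kinetochore list, were not among the feature symbols.

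Within single types the pattern of the mitotic kinesins held in all 6. In total 161 member-by-type calls were higher and 7 lower, against 4.65% higher and 4.68% lower over all genes and types tested. In nephron progenitors 27 of 53 members were higher (4.01% of all genes) and 0 lower (0.972%). The early nephron gate had 31 higher and 2 lower (6.19% and 6.65%), and proximal tubule 24 and 1 (2.71% and 2.0%). Stroma had 29 higher and 3 lower (7.31% and 11.5%), endothelial cells 26 and 1 (5.42% and 4.14%) and immune cells 24 and 0 (2.25% and 2.76%). Among the calls outside the dividing-cell lists were Kif26a, higher by 1.71 ± 0.30 in the early nephron gate, and Kif21a, at -0.72 ± 0.13 there. Kif1b fell by 0.47 ± 0.11 in stroma and by 0.43 ± 0.10 in endothelial cells.

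The size of the Mki67 difference was compared between nephron progenitors, stroma and endothelial cells by testing the difference of the differences. Against stroma, 8 members had a smaller rise in progenitors and 0 a larger one (1.29% and 2.17% of all genes tested). Against endothelial cells, 2 had a smaller rise and 0 a larger one (0.283% and 0.405%). Between stroma and endothelial cells 0 members were called in either direction by edgeR's quasi-likelihood test (0.27% and 0.648% of all genes were), which does not show that the types are alike. Cenpw, a histone-fold protein of the inner kinetochore (chr10:30196009-30200603), rose from 44.4 and 53.8 CPM without Mki67 to 110 and 122 CPM with it in progenitors, and from 13.5 and 19.9 to 97.6 and 115 CPM in stroma. Its rise was smaller in progenitors by 1.43 ± 0.18 against stroma (adjusted p = 3.119e-05) and by 1.41 ± 0.22 against endothelial cells (adjusted p = 0.00065). The levels with Mki67 were close in the 2 types, and the levels without it were not.

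Cenpq showed the reverse arrangement. It had 15.7 and 15.01 CPM without Mki67 in progenitors and 15.6 and 10.2 in stroma, but 41.2 and 41.5 against 90.1 and 98.8 CPM with Mki67, so here the levels with Mki67 were apart. The other calls against stroma were Cenph, Cenpu, Cenpk, Cenpe, Kif20b and Kif14. Cenpe had 211 and 196 CPM with Mki67 in progenitors and 349 and 344 in stroma, with 11.8 and 15.3 against 11.8 and 15.4 CPM without. Kif20b had 77.7 and 65.7 against 155 and 151 CPM with Mki67. The Mki67 UMIs moved with this: cells with Mki67 had it at 422 and 390 CPM in progenitors, 769 and 745 in stroma and 572 and 681 in endothelial cells, and its part in these differences was not tested. When all cells were thinned to 5000 UMIs, 4 of the 10 calls remained (Cenpe, Cenpw, Cenpq and Kif20b against stroma).

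To order the dividing-cell members by stage, cells were gated by other genes: S-gated cells had at least 2 of Ccne2, Cdc6, Dtl, Clspn, E2f1 and Uhrf1, and mitosis-gated cells at least 2 of Ccnb1, Cdc20, Plk1, Aurka, Ube2c and Cdca3, each with more genes of its own list than of the other. Both gates held enough cells in 4 types (nephron progenitor, early nephron, stroma, endothelial), and 48 members among 12680 genes were tested. In mitosis-gated cells 22 members were higher and 3 lower than in S-gated cells, against 7.45% higher and 7.79% lower over all genes. For 15 members every sum of mitosis-gated cells was above every sum of S-gated cells, which held for 1.21% of all genes. They were the 11 mitotic kinesins, Cenpf, Cenpa, Cenpe and Cenpl.

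Cenpf had 672 and 653 CPM in mitosis-gated and 48.0 and 53.9 CPM in S-gated cells, as means over the 4 types, a log2 difference of 3.75 ± 0.11 (adjusted p = 3.07e-14, edgeR quasi-likelihood test). Cenpa followed with 401 and 391 against 29.3 and 33.0 CPM (3.67 ± 0.09). Of the motors, Kif20a (3.04 ± 0.13), Kif2c (3.03 ± 0.11), Kif23 (3.02 ± 0.12) and Kif14 (2.98 ± 0.19) differed most, and Kif15 (2.05 ± 0.10) and Kif20b (2.02 ± 0.08) least. Kif11 stood at 27.2 and 41.8 CPM in S-gated cells and at 168 and 186 CPM in mitosis-gated cells. An S-gated cell can hold UMIs of the mitosis list, so these levels do not show when Kif11 first appears. In cells of neither gate that also lacked a Mki67 UMI, Kif11 had 1.84 and 1.83 CPM in nephron progenitors and 1.43 and 2.36 CPM in stroma. Cells of neither gate with a Mki67 UMI were left out of these levels.

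The inner kinetochore genes were spread over this axis. Cenpl, which pairs with Cenpn on the Cenpa nucleosome, had 35.1 and 35.3 CPM in mitosis-gated and 7.11 and 8.13 in S-gated cells (2.19 ± 0.11), and Cenpn 32.0 and 28.9 against 13.0 and 13.8 (1.24 ± 0.09). Cenpp, Cenpt, Cenpi, Cenpw and Cenpm differed by 0.81 to 1.12, and Cenpq by 0.40 ± 0.07. Cenpo, Cenpu and Cenpk did not pass the test, at 0.14 ± 0.15, -0.05 ± 0.11 and -0.07 ± 0.08. Cenph, which forms a complex with Cenpk, was lower in mitosis-gated cells, at 45.1 and 42.7 against 56.3 and 56.1 CPM (-0.30 ± 0.07, adjusted p = 0.0037). Within types Cenph passed the test in stroma alone (-0.67 ± 0.13), and it was at 0.04 ± 0.12 in nephron progenitors; the difference between types was not tested. In stroma cells of neither gate that also lacked a Mki67 UMI, Cenph had 2.07 and 3.43 CPM, against 85.0 and 80.3 CPM in S-gated ones.

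Kif13b and Cenpb were the other members lower in mitosis-gated cells, by 0.50 ± 0.13 (adjusted p = 0.015) and 0.15 ± 0.05 (adjusted p = 0.041). Both calls depended on the setting: with DESeq2 the adjusted p was 0.067 for Kif13b and 0.086 for Cenpb. Of the kinetochore and spindle genes outside the symbol rule, 26 of 31 were higher in mitosis-gated cells, against 7.45% of all genes, with a median of 1.42.

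**Figure D4:**
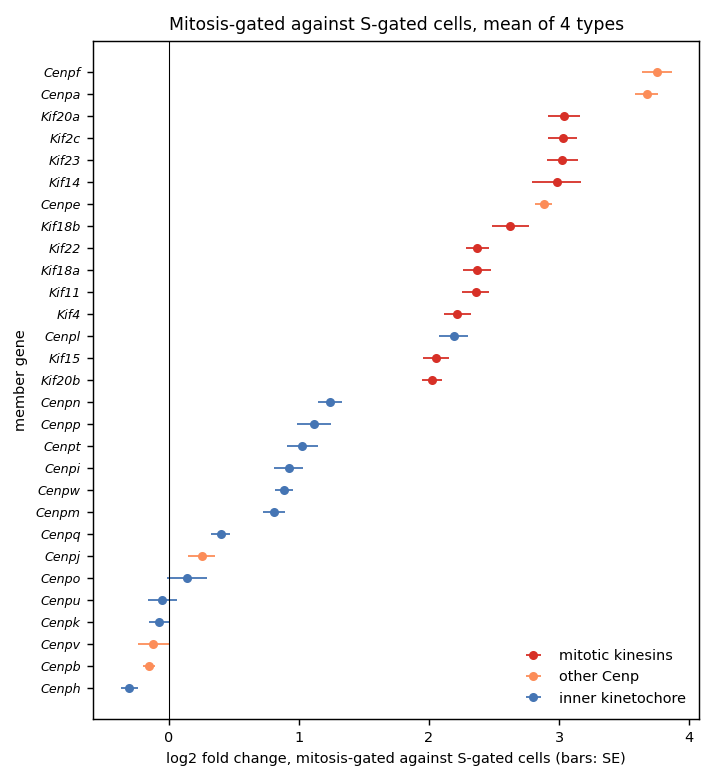
Log2 fold change between mitosis-gated and S-gated cells (x axis, mean over 4 types, bars are SE) for the mitotic kinesins, the inner kinetochore genes and the other centromere proteins (y axis). The mitotic kinesins, Cenpf, Cenpa, Cenpe and Cenpl lie above 2, most inner kinetochore genes lie between 0.40 and 1.24, and Cenph lies at -0.30.

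The last comparison looked for members that differ between types outside the dividing cells. In cells without a Mki67 UMI, each of 10 types was set against the mean of the others. The erythroid sums lay apart from the others: the median log2 difference over all genes was 0.21 to 0.58 in the other 9 types and -2.88 in erythroid cells. Values are therefore given also with the erythroid cells left out, an alternative chosen after this was seen. Over all types 110 member-by-type calls were higher and 35 lower (24.2% and 7.17% of all gene-by-type tests), and without erythroid cells 117 were higher and 79 lower (25.4% and 17.5%). DESeq2 gave 108 and 80 (21.5% and 14.4%), and gates of at least 4 markers, under which 8 types remained, gave 100 and 72 (27.1% and 19.8%). These shares of members are near those of all genes, so the counts are no result about the members, and the levels of the named genes follow.

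**Figure D5:**
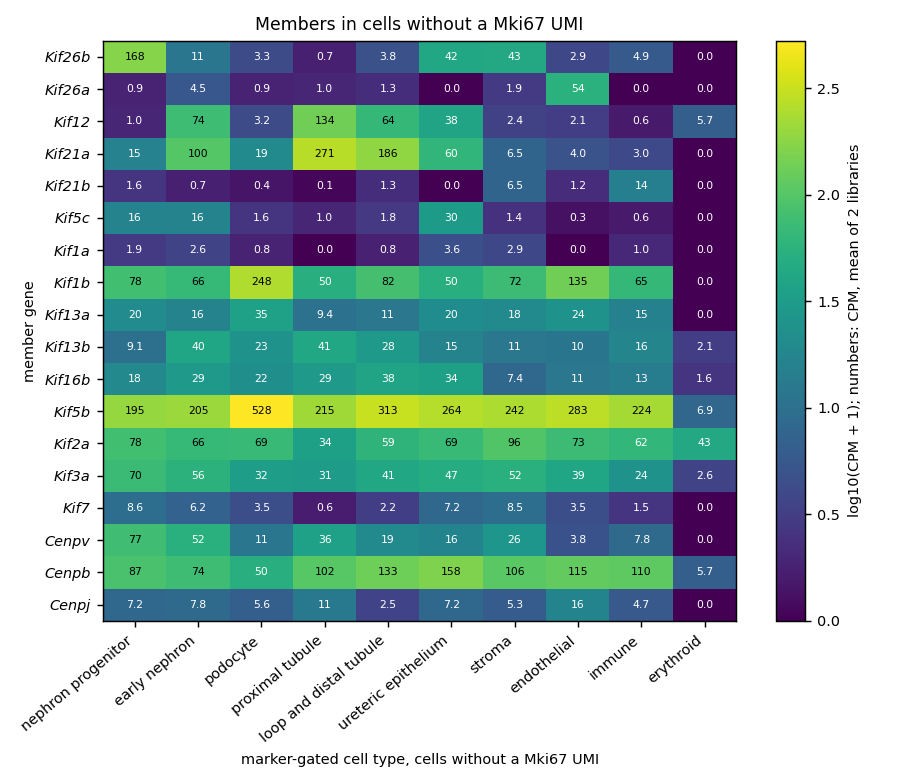
Level in cells without a Mki67 UMI of 18 members outside the mitotic kinesin and inner kinetochore lists (y axis) in 10 marker-gated types (x axis). Cenpj and Cenpv among them were higher in cells with Mki67. Colour is log10(CPM + 1) and the printed numbers are CPM, means of 2 libraries. Kif26b is highest in nephron progenitors, Kif26a in endothelial cells, Kif12 and Kif21a in proximal tubule, and Kif1b and Kif5b in podocytes.

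In nephron progenitors 16 members were higher and 2 lower (32.2% and 10.1% of all genes), and without erythroid cells 19 and 6 (31.9% and 22.8%). Kif26b, an atypical kinesin known for its part in the metanephric mesenchyme (chr1:178529125-178932857), had 173 CPM in replicate 1 and 164 in replicate 2. The next type was stroma, with 38.5 and 48.0 CPM, followed by ureteric epithelium with 52.0 and 31.2, and in each of the other types the mean of the libraries was 10.7 CPM or less. The log2 difference was 5.63 ± 0.17 (adjusted p = 6.02e-21, edgeR quasi-likelihood test), and 4.77 with erythroid cells left out. Kif5c, a conventional kinesin known from neurons, had 17.9 and 13.5 CPM (3.64, and 2.96 without erythroid cells), close to the 15.5 and 15.8 CPM of the early nephron gate. Kif27, a relative of Kif7, was rare at 2.75 and 3.38 CPM (4.0, and 3.69). It had no UMI in ureteric epithelium or erythroid cells without Mki67, so these fitted values are no bounds. Cenpv had 79.8 and 73.2 CPM there against 52.3 CPM in the next type, the early nephron gate.

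Stroma shared part of this pattern, with 15 members higher and 4 lower (31.2% and 7.87% of all genes), and without erythroid cells 17 and 5 (30.5% and 18.9%). Kif26b differed by 3.42 ± 0.27 (2.55 without erythroid cells). Kif21b, a motor of dendrites and of lymphocytes, had 6.22 and 6.75 CPM in stroma (3.77, and 3.29), second to the immune gate. Kif1a differed by 2.82 ± 0.67 (2.38 without erythroid cells) at 2.25 and 3.46 CPM. Kif7 had 7.54 and 9.52 CPM in stroma and 7.75 and 9.38 CPM in nephron progenitors, and 5.48 and 8.92 CPM in ureteric epithelium, and these ranges overlapped.

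The epithelial types shared Kif12 and Kif21a. Kif12, known as a modifier of cystic kidney disease in mice (chr4:63157948-63172145), had 127 and 141 CPM in proximal tubule, 68.7 and 80.1 in the early nephron gate, 57.4 and 70.1 in loop and distal tubule and 32.9 and 42.4 in ureteric epithelium. In nephron progenitors, podocytes, stroma, endothelial and immune cells it lay between 0.918 and 3.72 CPM in the libraries where it was found, and in erythroid cells it had 2.14 and 9.36 CPM from 4 UMIs. Its log2 difference in proximal tubule was 4.24 ± 0.14 (4.47 without erythroid cells). Kif21a, a transport motor of the plus end (chr15:90933275-91050382), was likewise highest in proximal tubule, at 285 and 256 CPM, followed by 208 and 164 in loop and distal tubule, 106 and 93.0 in the early nephron gate and 73.9 and 46.8 in ureteric epithelium. It differed in proximal tubule by 4.89 ± 0.13 (3.75 without erythroid cells). Proximal tubule had 9 members higher and 10 lower (29.9% and 7.54% of all genes), and without erythroid cells 8 and 24 (26.4% and 25%). Loop and distal tubule had 7 and 2 (20% and 5.01%), and without erythroid cells 6 and 5 (18.8% and 11.9%).

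The early nephron gate had the most members higher, 27, with 3 lower (28.6% and 4.87% of all genes), and without erythroid cells 29 and 5 (25.6% and 14.2%). Kif5c, Kif12 and Kif21a led it, by 3.50 ± 0.45, 3.14 ± 0.17 and 3.13 ± 0.20 (2.79, 3.41 and 2.03 without erythroid cells). Of the division genes, 7 of the 11 mitotic kinesins and 6 of the 12 inner kinetochore genes were called higher there in cells without Mki67, and 7 and 8 with erythroid cells left out, against 28.6% and 25.6% of all genes. In a separate setting, with erythroid cells kept and cells with a UMI of Top2a, Pcna or Mcm6 left out, 1 and 2 were called higher and 0 and 1 lower, while 19% of all genes were higher. Cenpf stood at 22.8 and 17.8 CPM there against 9.39 and 12.5 CPM in nephron progenitors and 4.11 and 1.19 CPM in podocytes. This gate had the highest share of cells with Mki67. Over all types leaving out the cells with Top2a, Pcna or Mcm6 lowered the calls from 145 to 84, over 9 types. The share of all genes called in this setting is not given for all types, and in the early nephron gate it fell too. The lower count is therefore no result about the members.

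Podocytes had 6 members higher and 8 lower (29.1% and 9.69% of all genes), and without erythroid cells 7 and 19 (30.3% and 21.8%). Kif1b (chr4:149176319-149307773) had 239 and 258 CPM, against 141 and 129 in endothelial cells, the next type (2.94 ± 0.13, and 1.74 without erythroid cells). Kif5b had 534 and 522 CPM, against 322 and 303 in loop and distal tubule, the next type (1.24 ± 0.07, and 1.07). The members lowest in podocytes were division genes with few UMIs. Kif11 had 4 UMIs, at 0.196 and 0.713 CPM (-2.67 ± 0.84, and -2.38 without erythroid cells), and Cenpi had 2 UMIs, a ratio of 0.128 to the mean of the other types with an exact Poisson 95% interval from 0.0155 to 0.464. In proximal tubule Kif20a likewise had 2 UMIs, a ratio of 0.131 (0.0158 to 0.472), but its log2 difference was 0.85 in cells thinned to 5000 UMIs (adjusted p = 0.77, edgeR quasi-likelihood test), so no direction is read from it.

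In endothelial cells 12 members were higher and 3 lower (30.0% and 7.45% of all genes), and without erythroid cells 15 and 9 (29.7% and 18.1%). Kif26a, an atypical kinesin that damps growth-factor signalling (chr12:112143974-112181747), had 56.6 and 50.8 CPM, and the next type, the early nephron gate, had 6.29 and 2.63 CPM. The fitted difference was 7.15 ± 0.29 (adjusted p = 1.27e-17, edgeR quasi-likelihood test), and 6.75 without erythroid cells. In 3 types Kif26a had no UMI, so the fitted value is no bound; the ratio to the next type was 12.04. Cenpt had 17.5 and 14.6 CPM (2.36, and 1.54 without erythroid cells), and Kif12 was lower there, at 2.05 and 2.17 CPM (-2.42, and -2.16).

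In ureteric epithelium 7 members were higher and 0 lower (12.2% and 2.56% of all genes) from 22 and 27 cells, the smallest gate tested. Without erythroid cells the counts were 6 and 1 (10.4% and 5.08%). Kif5c had 19.2 and 40.1 CPM (4.53 ± 0.68, and 3.83 without erythroid cells), Kif26b differed by 3.14 ± 0.61 (2.22) and Kif21a by 2.23 ± 0.49 (1.13). Immune cells had 8 members higher and 1 lower (25% and 9.83%), and without erythroid cells 10 and 5 (25.1% and 19.6%). Kif21b had 10.4 and 17.9 CPM there (5.18 ± 0.58, and 4.76 without erythroid cells), Kif2c had 6.90 and 6.70 CPM from 14 UMIs (4.12 ± 0.90, and 3.69), and Kif12 had 1 UMI, a ratio of 0.0135 (0.000342 to 0.0752) to the mean of the other types. Neither Kif21b nor Kif2c had a UMI in ureteric epithelium or erythroid cells without Mki67, so their fitted values are no bounds. In loop and distal tubule, Kif18a had 6.81 and 7.71 CPM (2.0 ± 0.69, and 1.28 without erythroid cells), with 7.20 CPM in ureteric epithelium.

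Erythroid cells had 3 members higher and 2 lower (3.54% and 6.71% of all genes), from 57 and 46 cells. Kif1b had no UMI among 788926, at least 24.7-fold lower than the mean of the other types against a floor of 3 UMIs. Kif5b had 6 UMIs, at 10.7 and 3.12 CPM. Of the members called higher, Kif2a had 61.9 and 24.95 CPM, rank 9 of the 10 types by CPM. Cenpq had 9 UMIs, at 14.9 and 6.24 CPM, rank 7 by CPM, and its log2 difference in CPM was 0.44 in replicate 1 and -0.45 in replicate 2. Cenpi had 2 UMIs, a ratio of 1.79 with an interval from 0.217 to 6.48. The call and the rank by CPM therefore differed for Kif2a and Cenpq, and the Cenpi interval includes equal levels.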

How the data were processed

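Analysed were 2 single-cell RNA libraries of mutant kidney at P0. The deposited values are raw counts of UMIs per gene and barcode in unfiltered matrices, written by Cell Ranger 4 per the file headers, while the submitters' processing notes name Cell Ranger 6.0.1 and the build mm10. Whether counting used strand is not given in the sources used here. Library totals were 163405630 and 135436576 UMIs. All 57 members matched RefSeq genes of GRCm38.p6, from which coordinates and overlaps were taken.

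Filters, marker gates and the Mki67 split are given with the results. Barcodes removed for mitochondrial UMIs numbered 690 and 768, and doublets were kept in the main values. Sums per library, type and state were tested with edgeR 4.0.16 (R 4.3.3; TMM scaling, filterByExpr, quasi-likelihood test, library as a block, Benjamini-Hochberg adjustment over all genes tested, threshold 0.05). The Mki67 fit had 32 sums and 15 residual degrees of freedom, the stage fit 16 and 7. The fitting was tested on simulated data. Each SE is the absolute log2 difference divided by the square root of the F statistic of its test. It is no separate estimate, and it can mislead for differences near 0 or few UMIs. Over types it was 0.04 for Kif5c at a fitted difference of 0.0085, while the libraries gave 0.85 and 0.51. Floors are 3 UMIs, and intervals cover counting error only.

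Genes were named by rule: over types the 15 largest rises and up to 8 falls and by stage the 6 largest in each direction (at least 100 UMIs), in each type the 3 largest changes without Mki67 (at least 50 UMIs), and every called difference between types; other members are given to describe their role list. Members and lists were chosen with earlier results of these data known. Alternatives were RLE scaling, DESeq2 1.42.0, no filter, no block, other cell, depth, doublet, gate and Mki67 settings, and each library left out. Since both libraries are of 1 group, same-numbered sums come from the same library, which is the block.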

Additional observations from a re-analysis of the deposited data

Results flagged for a closer look

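In 10 cases the Mki67 difference of a member itself differed between types in the edgeR quasi-likelihood fit (p-values adjusted over all genes), and in each it was smaller in nephron progenitors in both libraries. Values are log2 differences, progenitor minus the other type, with SE. Against stroma they were -3.17 ± 0.89 for Kif14 (adjusted p = 0.046), -1.43 ± 0.18 for Cenpw (3.119e-05), -1.43 ± 0.38 for Cenpu (0.029), -1.39 ± 0.23 for Cenpq (0.00062), -1.30 ± 0.23 for Cenph (0.0011), -1.22 ± 0.27 for Kif20b (0.0076), -0.84 ± 0.23 for Cenpk (0.041) and -0.77 ± 0.18 for Cenpe (0.012). Against endothelial cells they were -1.41 ± 0.22 for Cenpw (0.00065) and -1.36 ± 0.26 for Cenpq (0.0065). The Kif14 value rests on 1 UMI in each library in stroma cells without Mki67. It was -0.58 (adjusted p = 0.96) in cells thinned to 5000 UMIs and missed the threshold under 9 alternatives.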

How the results depend on the processing

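Counts of member calls (main values 31 over types, 168 within types, 145 between types without Mki67, 25 by stage, 10 for differences between types) stayed within 1.5 times except as follows. At most 5% mitochondrial UMIs, which left 4 types with both states and 7 without Mki67, gave 103 within types, 74 between types and 6 differences. A lead of 1 marker, with 9 types, gave 255 within types. Leaving cells with Top2a, Pcna or Mcm6 out of the group without Mki67 gave 84 between types and 5 differences, and thinning gave 4 differences. These settings left 30 sums in place of 32, with both states in 6 and 5 types. Shares over all genes are not given for the counts of the alternatives, so the changes in count are no result about the members. With no replicate block the counts were 32, 163, 143, 24 and 7. Thinned to 5000 UMIs, the share of cells with Mki67 was 22.7% in nephron progenitors, 45.9% in the early nephron gate, 3.61% in podocytes, 11.0% in proximal tubule, 11.1% in loop and distal tubule, 27.3% in ureteric epithelium, 27.3% in stroma and 6.84% in erythroid cells. Without cells over 50000 UMIs it was 26.3% in nephron progenitors, 56.8% in the early nephron gate and 14.1% in loop and distal tubule. Of 860 tested alternative values of named genes, 796 kept direction and call, 63 lost the call and 1 reversed: Kif20a in proximal tubule was 0.85 in thinned cells (adjusted p = 0.77). Of 132 values with a library left out, which have no test, 131 kept the direction, while Cenpq in erythroid cells was -0.45 without replicate 1 and 0.44 without replicate 2. Kif1b in nephron progenitors, called higher at 1.25, was at -0.02 (adjusted p = 0.95) without erythroid cells. Leaving out a library left no spread between samples. The cause of these changes was not tested.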
